A study of Homo sapiens with 8 samples.

Results

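FOXB2, AACSP1, LINC02751 and ZNF619 had, with the linker histone gene H1-1, the largest fitted fold decreases among the genes called lower when CHD7 was knocked out in human embryonic stem cells (hESCs). They were chosen from the contrast of CHD7 knockout with WT libraries and were 4 of the 57773 genes counted and of the 55 genes called lower in that contrast. H1-1 was second in that order, was not among the genes described and is named below only for likeness. A gene was called where the false discovery rate (FDR) was below 0.01 and the change was at least 2-fold. Because the values of the CHD7 knockout and WT libraries chose the genes, those values are given as a description with no p-value.

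The data are RNA-seq counts from 8 rRNA-depleted libraries made from H9, an established hESC line, with 2 libraries in each of 4 groups. WT cells were untreated and carried the genotype wild type (CHD7-HA), in which the endogenous CHD7 protein bears an HA tag. CHD7 knockout cells were untreated with genotype CHD7 -/-, made by placing a stop codon in CHD7 through CRISPR-Cas9 editing, and the labels do not say whether they carry the tag. HERVH knockdown cells had the same genotype as WT and were given LNA-GapmeRs, antisense oligonucleotides against transcripts of the endogenous retrovirus family HERVH, 24 h before harvest. HERVH element deleted cells were untreated and lacked 1 transcribed HERVH copy on Chr2, and the labels do not say whether they carry the tag. All groups share the line H9 and growth in mTesR1 medium. The edited lines were grown from picked colonies, and the labels do not say which clone each library came from, so a difference between clones and an effect of the edit cannot be told apart. The knockdown libraries were compared with untreated cells, so the oligonucleotides' targets and the transfection cannot be told apart either. Nothing in the labels says that the 2 libraries of a group came from separate cultures, so the tests measure the spread between these libraries, which may be technical.

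CHD7 is an ATP-dependent chromatin remodeler that binds enhancers and whose loss of function causes CHARGE syndrome. HERVH transcripts are abundant in hESCs, and the series asks how these transcripts bear on where CHD7 acts. The 4 genes are of different kinds. FOXB2 encodes a forkhead transcription factor of the developing nervous system. ZNF619 encodes a zinc finger protein of the C2H2 type, a class of DNA-binding proteins of which many recruit a repressor complex through a KRAB domain. LINC02751 is a long non-coding RNA (lncRNA). AACSP1 is a transcribed pseudogene of AACS, the cytosolic enzyme that activates the ketone body acetoacetate for lipid synthesis.

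On GRCh37, FOXB2 (ENSG00000204612) lies at chr9:79634571-79635869 on the plus strand and is a single exon of 1299 bases. AACSP1 (ENSG00000250420) lies at chr5:178194205-178224612 on the minus strand, with 11 exons and 1095 exon bases, annotated as a transcribed unprocessed pseudogene. LINC02751 (ENSG00000254946) lies at chr11:15574401-15625715 on the plus strand, with 3 transcripts, 7 exon blocks and 1302 exon bases. ZNF619 (ENSG00000177873) lies at chr3:40518604-40532544 on the plus strand, with 10 transcripts, 7 exon blocks and 5331 exon bases. The genes are on different chromosomes and share neither a kind of transcript nor an exon structure. GC content of the longest transcript ran from 43.7% for LINC02751 and 45.9% for ZNF619 to 57.8% for AACSP1 and 69.4% for FOXB2.

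Promoter windows of 300 bases, 250 before to 50 after the annotated start, were taken from RefSeq on GRCh38.p14. FOXB2 and LINC02751 had an entry, and AACSP1 and ZNF619 had none. The windows are shown because FOXB2 and LINC02751 differ in how many CpG dinucleotides lie at the annotated start. Each is printed 5′ to 3′ on the plus strand with every CG in capitals, a motif that reads the same on both strands. The FOXB2 window is chr9:77019405-77019704, and the LINC02751 windows at its 2 RefSeq starts are chr11:15552523-15552822 and chr11:15623855-15624154.
FOXB2: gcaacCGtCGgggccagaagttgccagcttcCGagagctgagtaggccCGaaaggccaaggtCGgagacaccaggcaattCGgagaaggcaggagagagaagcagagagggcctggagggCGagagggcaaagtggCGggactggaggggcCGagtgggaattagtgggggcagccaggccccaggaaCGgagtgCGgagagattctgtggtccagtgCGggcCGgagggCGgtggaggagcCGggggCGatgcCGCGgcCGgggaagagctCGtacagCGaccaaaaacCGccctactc
LINC02751 first start: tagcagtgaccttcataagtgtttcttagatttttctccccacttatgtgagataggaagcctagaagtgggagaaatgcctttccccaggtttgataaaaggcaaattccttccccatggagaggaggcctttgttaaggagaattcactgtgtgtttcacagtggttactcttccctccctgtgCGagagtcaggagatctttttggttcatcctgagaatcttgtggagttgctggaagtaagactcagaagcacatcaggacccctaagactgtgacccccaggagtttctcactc
LINC02751 second start: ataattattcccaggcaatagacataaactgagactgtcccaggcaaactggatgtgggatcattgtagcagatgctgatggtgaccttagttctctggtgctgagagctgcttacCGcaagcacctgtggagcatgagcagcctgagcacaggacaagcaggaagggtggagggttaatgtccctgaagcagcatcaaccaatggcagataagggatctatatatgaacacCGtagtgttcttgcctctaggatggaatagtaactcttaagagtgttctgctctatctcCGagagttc
The FOXB2 window held 22 CpG and was 66.3% GC. Its last 50 bases begin with atg, so its annotated start may be that of the coding sequence and not of transcription. The 2 RefSeq starts of LINC02751 lie 71.3 kb apart, more than the 51.3 kb spanned by its counted model. At least 1 of them thus lies outside that model. The LINC02751 windows held 1 and 3 CpG and were 46.3% and 47.7% GC. Over 35116 RefSeq promoter windows of the same length, 96.0% held at least 1 CpG and the median was 14. As many CpG as at FOXB2 or more were in 37.70% of windows, and as few as at the LINC02751 starts or fewer were in 11.0% and 24.5%. The 2 genes thus lay on opposite sides of the median.

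Libraries held 14802049 to 23156445 counts on genes, and 3 counts, used here as the detection floor, were worth 0.128 to 0.219 CPM, the count after scaling every library to the same total. The targeted gene CHD7, which encodes the remodeler, had 13888 to 14098 counts in WT and 3667 to 4269 in CHD7 knockout libraries, a fall of 3.3-fold (FDR 2.25e-05, edgeR). A stop codon need not remove a transcript. The 10 pluripotency markers, POU5F1, SOX2 and NANOG among them, summed to 6710 to 8120 CPM in every library. None of them was called by edgeR in any comparison with WT. Of the other marker lists no gene was called by edgeR, but some summed levels did not overlap with WT. Among forkhead genes of these lists, DESeq2 called FOXA2 (endoderm) lower in CHD7 knockout and FOXD3 (neural crest) higher in HERVH knockdown. Of the ectoderm list, 5 markers summed to 9.54 to 13 CPM in WT, 19.8 to 20.2 in CHD7 knockout, 6.77 to 8.10 in HERVH knockdown and 10.6 to 12.5 in HERVH element deleted libraries, with SOX1 at 0 in CHD7 knockout and NEUROG2 at 0 in the HERVH groups. The 5 endoderm markers found summed to 4.94 to 7.86 CPM in WT, 2.80 to 4.34 in CHD7 knockout, 12.9 to 13.3 in HERVH knockdown and 7.31 to 7.5 in HERVH element deleted libraries. SOX17 was at 0 in the HERVH groups. FOXA2 alone was at 1.39 and 4.96, 0.324 and 0.699, 10.3 and 9.69, and 3.98 and 5.07 CPM in the same order of groups. The 6 neural crest markers were at 14.8 to 17.5, 18.4 to 24.4, 20.9 to 35 and 15.9 to 17.6 CPM in the same order of groups, with TFAP2B at 0 throughout. The 6 fibroblast markers were at 206 to 234, 263 to 274, 187 to 495 and 171 CPM, with LUM at 0 throughout. DCN was also at 0 in CHD7 knockout and HERVH knockdown libraries. The 6 trophectoderm or amnion markers were at 4.68 to 10.3, 9.61 to 14.6, 3.06 to 3.34 and 3.40 to 5 CPM, with CGA at 0 throughout. CDX2 and TFAP2A were also at 0 in CHD7 knockout, and CDX2 in HERVH element deleted libraries. Of these 6 markers 4, 5, 3 and 5 had at most 3 counts in the same order of groups, so the sums rest on few genes. The 6 mesoderm markers were at 2.41 to 5.68 CPM in all libraries. The part of such cells in the results below, those on HERVH knockdown included, was not tested. In HERVH knockdown cells the difference between the 2 replicates followed GC content over 12480 genes (Spearman rho 0.705), against 0.425 in WT, −0.117 in CHD7 knockout and 0.343 in HERVH element deleted cells.

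In CHD7 knockout cells the 4 genes were left at 1.29% to 6.80% of their WT level. FOXB2 was the one that went down to the detection floor, while AACSP1, LINC02751 and ZNF619 kept reads above it in at least 1 knockout library, so "switched off" holds for FOXB2 alone at this depth. In all 4 genes both CHD7 knockout libraries lay below the 6 other libraries, which was so for 7.45% of the 23474 genes tested. Lying below the WT libraries follows from the choice, so nothing is read from this either. Of all genes tested 0.234% were called lower and 0.337% higher in this contrast; since it chose the genes, nothing is read from their being called.

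The count of FOXB2 was 74 and 105 for the WT pair of libraries, 0 and 2 for CHD7 knockout, 42 and 40 for HERVH knockdown and 86 and 81 for HERVH element deleted. In CPM this was 4.16 ± 1.06 in WT (SD, n = 2 in this and all later means), 0.0538 ± 0.0761 in CHD7 knockout, 2.61 ± 0.434 in HERVH knockdown and 4.02 ± 0.491 in HERVH element deleted cells. Both knockout libraries were under the floor of 3 counts. FOXB2 was thus at least 25.8-fold lower than the WT mean, taken against the higher floor of the 2 libraries. The bound is smaller against the lower WT library. The fitted log2 fold change of −6.21 (SE 0.65) is no bound, and it was −5.18 without CHD7 knockout replicate 1 and −9.36 without replicate 2.

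AACSP1 was counted 360 and 446 times for WT, 2 and 13 for CHD7 knockout, 357 and 328 for HERVH knockdown and 416 and 412 for HERVH element deleted. The mean was 18.7 ± 2.99 CPM in WT, 0.396 ± 0.429 in CHD7 knockout, 21.7 ± 3.07 in HERVH knockdown and 20.01 ± 3.14 in HERVH element deleted cells. The knockout libraries differed from each other, 1 under the floor and 1 above it, yet both were far below every other library. The log2 fold change was −5.61 (SE 0.45), −4.72 without CHD7 knockout replicate 1 and −7.55 without replicate 2.

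For LINC02751 the counts were 337 and 284 (WT), 17 and 18 (CHD7 knockout), 92 and 54 (HERVH knockdown) and 297 and 228 (HERVH element deleted). Of the 4 genes it was the one that also stood low in HERVH knockdown cells, between the CHD7 knockout and the other libraries. Its mean was 14.4 ± 1.61 CPM in WT, 0.877 ± 0.129 in CHD7 knockout, 4.49 ± 0.781 in HERVH knockdown and 12.5 ± 0.279 in HERVH element deleted cells. The log2 fold change in CHD7 knockout was −4.04 (SE 0.30).

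ZNF619 gave 228 and 179 counts under WT, 15 and 11 under CHD7 knockout, 134 and 107 under HERVH knockdown and 195 and 160 under HERVH element deletion. Its mean was 9.45 ± 1.52 CPM in WT, 0.643 ± 0.0718 in CHD7 knockout, 7.57 ± 0.323 in HERVH knockdown and 8.48 ± 0.210 in HERVH element deleted cells. The log2 fold change in CHD7 knockout was −3.86 (SE 0.31). The 2 knockout libraries lay close together, and every other library was at least at 7.34 CPM.

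**Figure D1:**
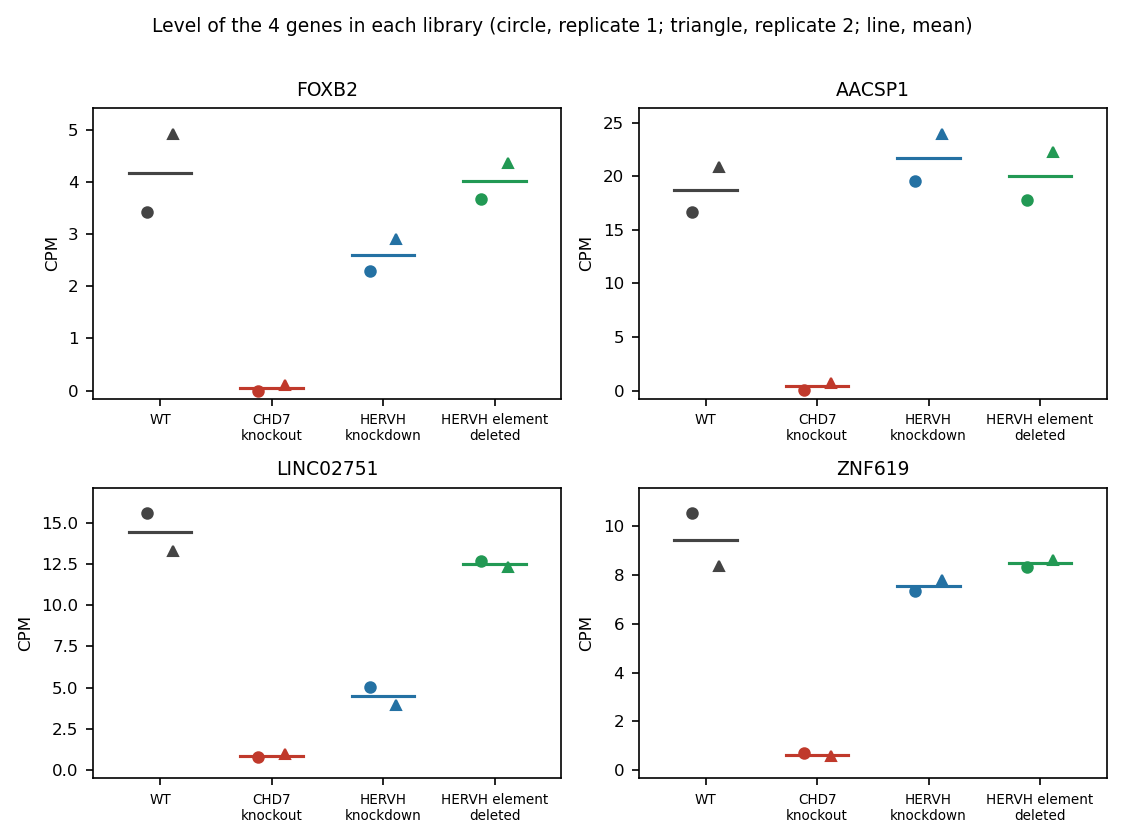
Scaled counts (CPM, linear axes from 0) of each gene in the 8 libraries, with circles for replicate 1, triangles for replicate 2 and lines for the mean of each group. The CHD7 knockout libraries sit at 0 to 0.968 CPM in all panels, and LINC02751 alone is also low in HERVH knockdown cells, at 5.04 and 3.93 CPM.

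Just inside the choice, ZNF619 was 14.5-fold lower in CHD7 knockout. Next in order among the genes called lower, TEK, a receptor tyrosine kinase for angiopoietins, was 10.1-fold lower, from 570 and 589 counts to 59 and 48. PTCHD4, a patched-domain protein, was 9.77-fold lower, from 153 and 91 counts to 11 and 12. DAZL, a germ cell RNA-binding protein, was 8.25-fold lower, from 146 and 92 counts to 19 and 8. In HERVH knockdown cells TEK was at 76.9%, PTCHD4 at 29.9% and DAZL at 26.9% of WT. A low level there is thus not particular to LINC02751, which was at 31.1%. Genes that were not called are left out of this order, and some of them had larger fitted falls, such as ENSG00000254695 of the LINC02751 locus, described below.

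The 2 HERVH perturbations tested whether the genes that were lowest without CHD7 also moved when HERVH transcripts were depleted or 1 HERVH copy was removed. Of the 4 genes, 1 was called lower in HERVH knockdown cells, where 0.136% of all genes tested were called lower and 0.0809% higher. None was called in HERVH element deleted cells, where 0.0298% of genes were called lower and 0% higher (edgeR; none of the 4 had an unadjusted p under 0.05 or was called by DESeq2). Both comparisons share the WT libraries that helped to choose the genes. The comparison of HERVH knockdown with HERVH element deleted cells contrasts none of the libraries behind the choice and is given beside them. Its spread is still estimated from all 8 libraries in 1 fit, so it is not fully independent of the choice. In that comparison 0.0809% of genes were called lower and 0.124% higher, and none of the 4 genes was called by edgeR; of the 4, LINC02751 had an unadjusted p under 0.05 there, and DESeq2 called it lower.

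LINC02751 fell in HERVH knockdown cells to 31.1% of its WT level, a log2 fold change of −1.68 (SE 0.25, 95% interval −2.22 to −1.14, FDR 0.00773, edgeR). Both knockdown libraries, at 5.04 and 3.93 CPM, lay below both WT libraries at 15.6 and 13.3 CPM. Against HERVH element deleted cells, at 12.7 and 12.3 CPM, the difference was −1.47 (SE 0.25, interval −2.01 to −0.93, FDR 0.0138), which missed the FDR threshold. The direction was the same under all 14 alternative settings in both comparisons, with −1.92 to −1.52 against WT and −1.73 to −1.32 against HERVH element deleted cells.

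The LINC02751 call against WT held in 9 of the 14 settings, over which its FDR ran from 4.9e-06 to 0.108. It was lost in a fit of the 4 libraries compared (−1.70, FDR 0.0483), without WT replicate 1 (−1.56, FDR 0.108), without WT replicate 2 (−1.79, FDR 0.0252), without CHD7 knockout replicate 1 (−1.69, FDR 0.0166) and without CHD7 knockout replicate 2 (−1.69, FDR 0.015). The difference from HERVH element deleted cells was called in 5 of the 14 settings, 2 of them without HERVH knockdown replicate 1 (−1.73, FDR 0.000275) and without HERVH knockdown replicate 2 (−1.32, FDR 0.00586). With the libraries corrected for GC content it was −1.37 (FDR 0.00189), so the difference was about as large after that correction. The fit of the 4 libraries compared, which leaves out the WT and CHD7 knockout libraries, gave −1.5 (FDR 0.151, edgeR) and no call.

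LINC02751 was not detectably lower in HERVH element deleted cells. It stood at 86.7% of WT, with a log2 fold change of −0.21 (interval −0.71 to 0.30, FDR 1). Its 2 libraries lay below both WT libraries, as did 20.3% of all genes tested.

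FOXB2 was at 62.6% of WT in HERVH knockdown cells, a log2 fold change of −0.68 (interval −1.51 to 0.15, FDR 0.361), and at 96.6% in HERVH element deleted cells (−0.05, interval −0.85 to 0.75, FDR 1). Its knockdown libraries, at 2.30 and 2.91 CPM, lay below the lower WT library at 3.42 CPM, but at these counts a fall of more than 2-fold and no change both lie within the interval. Set against HERVH element deleted cells, HERVH knockdown cells differed by −0.63 (interval −1.46 to 0.20, FDR 0.396).

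ZNF619 was at 80.1% of WT in HERVH knockdown cells (−0.32, interval −0.85 to 0.21, FDR 0.509) and at 89.8% in HERVH element deleted cells (−0.16, interval −0.68 to 0.37, FDR 1). Between those groups the difference was −0.17 (interval −0.70 to 0.37, FDR 0.756). Its intervals left no room for a fall of 2-fold in any of these comparisons.

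AACSP1 was at 116% of WT in HERVH knockdown cells (0.21, interval −0.44 to 0.86, FDR 0.747) and at 107% in HERVH element deleted cells (0.09, interval −0.56 to 0.74, FDR 1). The difference between these groups was 0.12 (interval −0.53 to 0.77, FDR 0.867), and libraries of all 3 groups overlapped. A 2-fold change in either direction lay outside each interval.

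Libraries of HERVH knockdown lay below those of WT for 3 of the 4 genes, FOXB2, LINC02751 and ZNF619, and below those of HERVH element deleted cells for the same 3. This was so for 22.3% and 22.9% of all genes tested, so non-overlap of 2 libraries with 2 is common in these data.

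**Figure D2:**
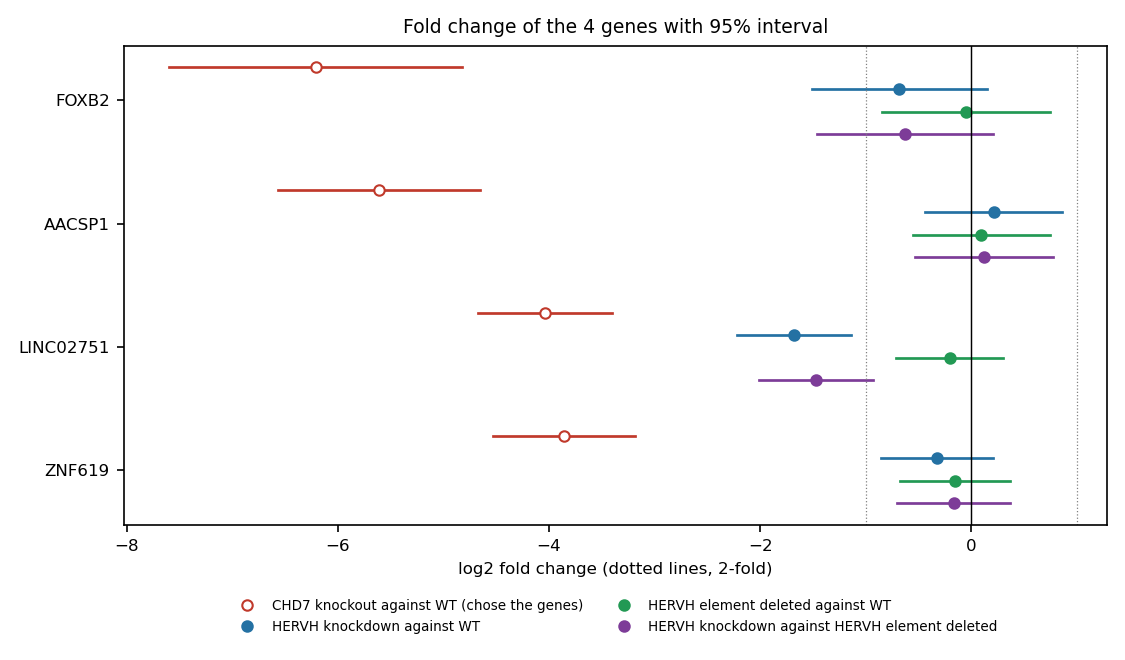
Log2 fold change (x axis, 0 is no change, dotted lines at 2-fold) of each gene in 4 comparisons, with the 95% interval of the edgeR fit as a line. Open circles mark the contrast that chose the genes, from −3.86 to −6.21, and among the filled circles the 2 intervals of LINC02751 that involve HERVH knockdown, −2.22 to −1.14 and −2.01 to −0.93, are the ones that leave out 0.

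The LINC02751 locus holds 2 further lncRNA genes that passed the filter on low counts. ENSG00000254789 overlaps LINC02751 on the opposite strand, and its values were singled out after they were seen. Its counts were 43 and 37 for WT, 5 and 1 for CHD7 knockout, 30 and 13 for HERVH knockdown and 71 and 26 for HERVH element deleted. Both knockout libraries were lower than every other library.

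ENSG00000254789 was lower in CHD7 knockout cells by a log2 fold change of −3.60 (SE 0.67, FDR 0.0148), which missed the threshold, and it was called in 8 of the 14 alternative settings (FDR 4.29e-06 to 0.161). The value was −4.95 without CHD7 knockout replicate 1 and −2.95 without replicate 2. In HERVH knockdown cells its change was −0.50 (FDR 0.638), while LINC02751 was called lower there. The libraries were strand-specific, but the strand setting of the count is not given in the sources used here, so reads of the 2 genes may not be told apart.

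ENSG00000254695 starts 1.32 kb beyond the end of LINC02751 on the same strand. Counts of 29 and 13 (WT), 0 and 2 (CHD7 knockout), 0 and 1 (HERVH knockdown) and 32 and 11 (HERVH element deleted) were found for it. All 4 libraries of CHD7 knockout and HERVH knockdown were under the floor, so it was at least 6.03-fold and at least 4.46-fold lower than the WT mean. The WT libraries were at 1.34 and 0.608 CPM, and both bounds are smaller against the lower one. With so few counts neither difference passed the test (FDR 0.0785 and 0.0638), and each was called in 1 of the 14 settings. The order of the groups was that of LINC02751 in so far as WT and HERVH element deleted libraries were the higher ones.

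**Figure D3:**
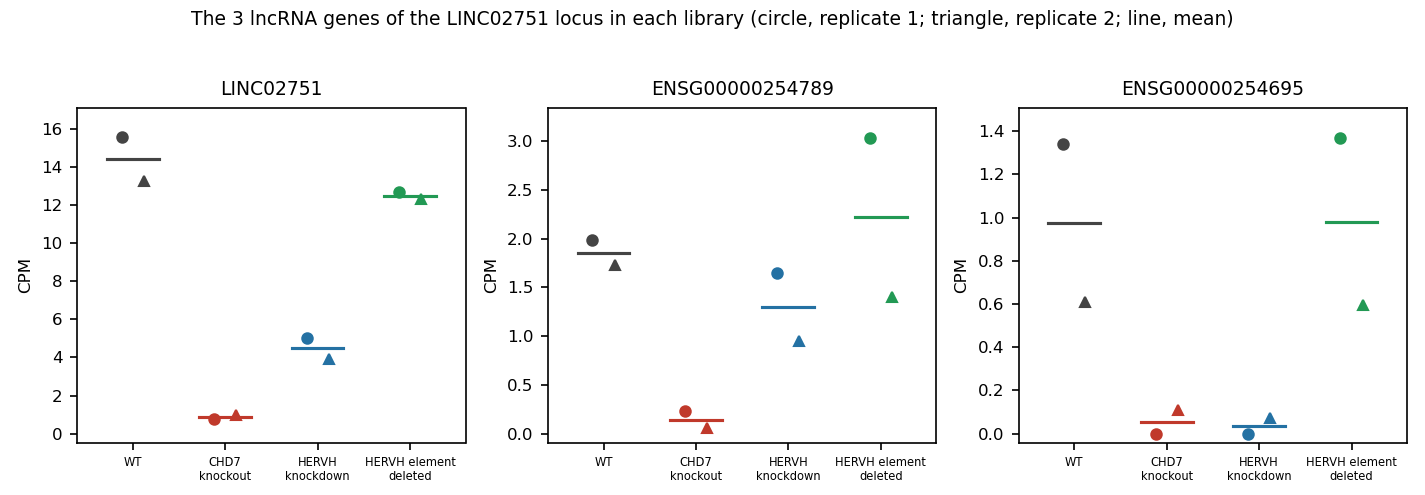
CPM (linear axes from 0) of LINC02751, the overlapping antisense gene ENSG00000254789 and the downstream gene ENSG00000254695 in the 8 libraries, with circles for replicate 1, triangles for replicate 2 and lines for group means. All 3 are at their lowest in CHD7 knockout or HERVH knockdown cells, and ENSG00000254695 has 0 to 2 counts in the 4 libraries of those groups.

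Of 65 annotated genes within 500 kb, 28 were tested, of which 18 had a log2 fold change below 0 and 10 above 0 in CHD7 knockout cells. Their median was −0.22, against −0.01 over all genes tested. Below 0 were 7 of 8 around AACSP1 (median −0.44), 4 of 6 around FOXB2 (median −0.38), 3 of 5 around LINC02751 (median −0.06) and 4 of 9 around ZNF619 (median 0.05). In edgeR 1 was called, GNA14, which was higher; 7 had an unadjusted p under 0.05, and DESeq2 called GNA14 and ENSG00000254789. None of the 28 was called in HERVH knockdown or HERVH element deleted cells by either tool. At an unadjusted p under 0.05 were 10 and 0 of them. Among all 23474 genes tested, 2550 had an unadjusted p under 0.05 (edgeR) when the CHD7 knockout was compared with WT. The same count was 4461 for the knockdown and 617 for the element deletion. Counts at this level here and in the gene lists below are to be read beside those numbers.

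GNA14, a G protein alpha subunit whose gene lies 402 kb from FOXB2, went from 12 and 21 counts (WT) to 169 and 152 (CHD7 knockout). It rose by a log2 fold change of 3.37 (SE 0.38, FDR 0.000405) and was called in all 14 alternative settings. Its HERVH knockdown libraries had 29 and 32 counts and its HERVH element deleted libraries 26 and 20.

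The nearest tested gene on the left of FOXB2 was PRUNE2, 114 kb away, at −0.89 (FDR 0.0102) in CHD7 knockout cells, and on the right VPS13A, 156 kb away, at −0.37 (FDR 0.41). PRUNE2 missed both thresholds, and both knockout libraries, with 1198 and 906 counts, were below the WT libraries with 1953 and 2198. Such non-overlap is common in these data. Next to AACSP1, the zinc finger genes ZNF354A, 36.5 kb away, and ZNF354B, 62.3 kb away, were at −0.15 and −0.47. Around LINC02751, INSC, 306 kb away, was at 0.24 and SOX6, a transcription factor gene 362 kb away, at −0.06. Next to ZNF619, the ribosomal protein gene RPL14 was at 0.05, 8.53 kb away. None of these passed the test.

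**Figure D4:**
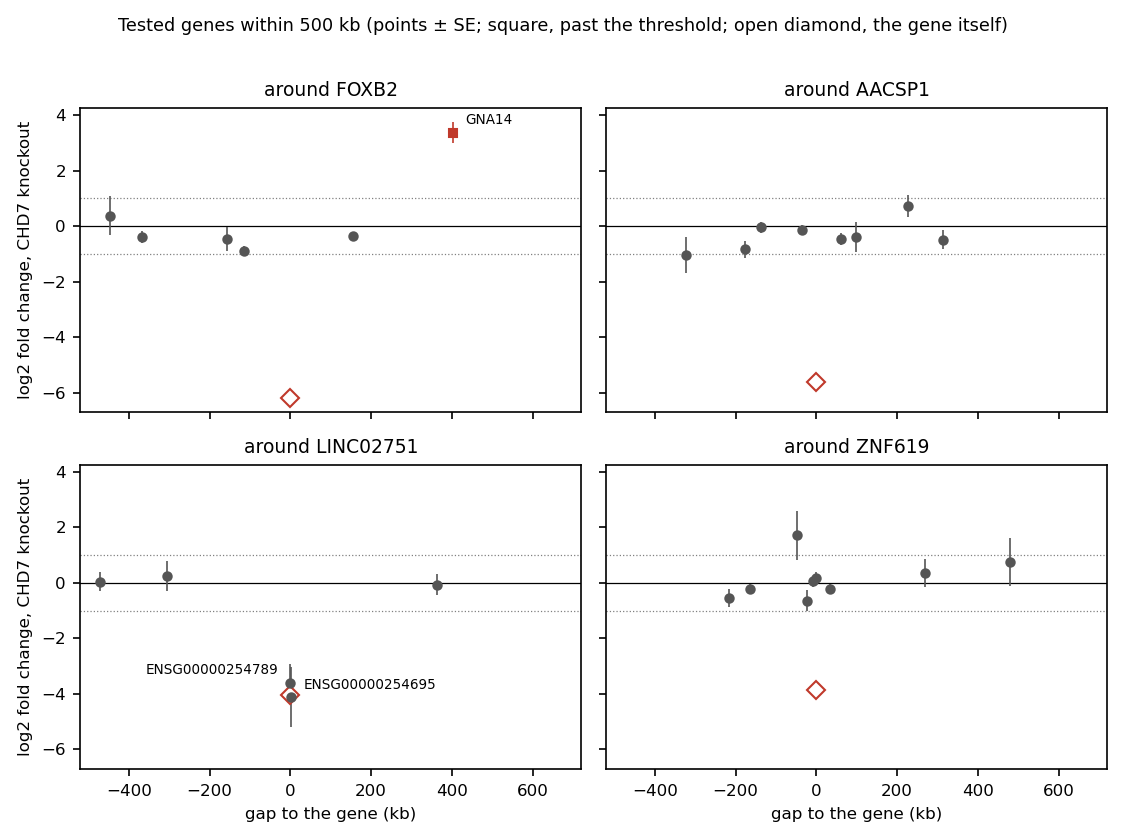
Log2 fold change in CHD7 knockout (y axis, points ± SE) of the 28 tested genes against their gap in kb from the gene they surround (x axis, 0 where they overlap), with the gene itself as an open diamond. GNA14, the square at 3.37, is the one called, and apart from it the points beyond −2 are ENSG00000254789 and ENSG00000254695 at the LINC02751 locus.

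ZNF619 overlaps its relative ZNF620 at the start, where the 2 genes share 227 exon bases, 4.26% of those of ZNF619 and 6.001% of those of ZNF620. Reads there belong to either and are left out of a count that drops ambiguous reads. ZNF620 went from 418 and 397 counts (WT) to 517 and 356 (CHD7 knockout), a log2 fold change of 0.19 (SE 0.20, interval −0.23 to 0.60, FDR 0.854). The next gene of the group, ZNF621, 33.8 kb beyond ZNF619, was at −0.21 (interval −0.60 to 0.17, FDR 0.791). ZNF619 was thus 14.5-fold lower beside an overlapping relative that was not detectably changed.

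AACSP1 shares most of its sequence with its parent AACS. Over 1105 aligned columns of AACSP1 and the longest coding AACS transcript in GENCODE, 90.4% were identical, with 89 mismatches and 17 gap columns, and the longest identical run was 53 bases. The stretch with the most mismatches shows where reads can tell them apart. It lies in exon 12 of AACS, in its open reading frame, at chr12:125609490-125609549 on the plus strand, and in exon 5 of AACSP1 at chr5:178213712-178213771 on the minus strand, both on GRCh37. Mismatched bases are in capitals, 12 of 60.
AACS: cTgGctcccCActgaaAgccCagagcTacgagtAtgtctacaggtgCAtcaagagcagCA
AACSP1: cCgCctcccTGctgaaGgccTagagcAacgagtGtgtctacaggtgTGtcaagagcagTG
AACS itself went from 1327 and 1466 counts (WT) to 2477 and 1769 (CHD7 knockout), a log2 fold change of 0.69 (SE 0.20, interval 0.26 to 1.12, FDR 0.122). Both knockout libraries were higher than both WT libraries, but non-overlap of 2 libraries with 2 is common in these data. The change in AACS did not pass the test. In 4 of the 14 alternative settings its FDR was below 0.01 (0.00321 in the fit of 4 libraries, 0.00508 with the GC content correction, 0.0012 and 0.00142 with either HERVH knockdown library left out), and over all 14 the value was 0.56 to 0.84, under 2-fold. How reads matching both were assigned is not given in the sources used here, so the split between them is uncertain.

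FOXB1, the paralog of FOXB2, went from 44 and 29 counts (WT) to 41 and 24 (CHD7 knockout), a log2 fold change of −0.08 (interval −1.05 to 0.88, FDR 0.981). Among 25 tested forkhead genes other than FOXB2, none was called in CHD7 knockout cells by edgeR. The median log2 fold change was −0.01, the same as over all genes, 14 were below 0, 3 had an unadjusted p under 0.05, and DESeq2 called FOXA2. FOXA2, a transcription factor of endoderm, was named after its values were seen. Its 30 and 106 counts (WT) compare with 7 and 13 (CHD7 knockout), at −2.64 (FDR 0.0317), and was called in 7 of the 14 alternative settings. It was −3.26 without WT replicate 1, −1.46 without WT replicate 2 and −3.24 without CHD7 knockout replicate 2, and its 2 WT libraries were far apart. None of the 25 was called by edgeR in HERVH knockdown or HERVH element deleted cells, with 7 and 1 at an unadjusted p under 0.05. DESeq2 called FOXD3 higher in HERVH knockdown cells and none in HERVH element deleted cells. Against HERVH element deleted cells DESeq2 called FOXJ1 higher in HERVH knockdown cells.

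The enzymes around the reaction of AACS were not called either. Of 9 tested genes of ketone body and acetoacetate metabolism, AACS among them, none was called in CHD7 knockout, HERVH knockdown or HERVH element deleted cells by edgeR or DESeq2, and 2, 2 and 0 had an unadjusted p under 0.05. Their median in CHD7 knockout cells was 0.04. ACAT1, which splits acetoacetyl-CoA, was at 0.01 and OXCT1, which activates ketone bodies in mitochondria, at −0.12.

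Zinc finger genes of chromosome 3 other than ZNF619 were at log2 fold changes of −1.17 to 1.38 in CHD7 knockout cells. None of 20 tested was called in CHD7 knockout, HERVH knockdown or HERVH element deleted cells by edgeR or DESeq2, with 3, 3 and 0 at an unadjusted p under 0.05, and the median in CHD7 knockout cells was 0.10. Of 7 tested corepressor genes of KRAB zinc finger proteins, such as TRIM28 and SETDB1, none was called in these comparisons by either tool. At an unadjusted p under 0.05 were 1, 2 and 0 of them, and their median in CHD7 knockout cells was 0.17. Against HERVH element deleted cells DESeq2 called the chromosome 3 gene ZNF385D lower in HERVH knockdown cells and no corepressor gene.

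Among 361 tested lncRNA genes with LINC symbols, LINC02751 aside, 1 was called lower and 3 higher in CHD7 knockout cells, beside 0.234% lower and 0.337% higher of all genes tested; 72 had an unadjusted p under 0.05, and DESeq2 called 4 lower and 7 higher. The one called lower was LINC02693, at −1.97 (FDR 0.00825), with 7.91 ± 1.25 CPM in WT and 2.02 ± 0.111 in CHD7 knockout; its call was lost without WT replicate 1 (−2.09), WT replicate 2 (−1.80), CHD7 knockout replicate 1 (−1.9) or CHD7 knockout replicate 2 (−2). Those called higher were LINC01487 at 3.25 (FDR 3.2e-06), LINC01194 at 2.96 (FDR 0.000299) and LINC00645 at 4.15 (FDR 4.65e-05), of which LINC01194 was not called without WT replicate 2. The median over the 361 was 0.02 in CHD7 knockout and −0.16 in HERVH knockdown cells, where none was called by edgeR (59 at an unadjusted p under 0.05; DESeq2 called 5 lower and 5 higher). In HERVH element deleted cells 1 was called lower by edgeR, LINC00654 at −5.44, and 13 had an unadjusted p under 0.05. DESeq2 called LINC00654 and LINC01194 lower there. Against HERVH element deleted cells edgeR called LINC00654 and LINC00941 higher in HERVH knockdown, and DESeq2 called 4 lower and 2 higher.

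The genes whose levels ran most alike over the 8 libraries included other genes that were low in CHD7 knockout. They were sought among 17818 genes whose mean log2 CPM was at least that of 1 CPM. The CHD7 knockout libraries helped to choose the 4 genes, so likeness to other genes low there follows from the choice. By Pearson correlation of log2 CPM, FOXB2 was most like CHODL (0.995), TEK (0.986) and AACSP1 (0.985). AACSP1 was most like FOXB2 (0.985) and the zinc finger genes ZNF558 (0.978) and ZNF124 (0.975). ZNF619 was most like MAP1LC3B (0.996), an autophagy gene, H1-1 (0.996) and TEK (0.993).

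LINC02751 was most like NEBL (0.994), JAM3 (0.980), a junctional adhesion molecule, and PTCHD4 (0.975). Of these, PTCHD4 had 30 and 24 counts in HERVH knockdown libraries against 153 and 91 in WT, and NEBL was at −0.77 there. JAM3 differed little in size, at −0.35 in CHD7 knockout and −0.13 in HERVH knockdown cells, so a high correlation here does not mean a change of like size.

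Between pairs of the 4 genes the correlation was 0.881 to 0.985 over 8 libraries and −0.577 to 0.754 over the 6 without CHD7 knockout. Without those 2 libraries, which chose the genes, FOXB2 with LINC02751 was at 0.754 and LINC02751 with ZNF619 at 0.751, and the other 4 pairs were at −0.577 to 0.411. All points share libraries and depths, and the values are descriptions.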

How the data were processed

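RNA-seq of 8 libraries was deposited as raw counts per gene, 1 table a library. Per the labels, the authors used rRNA-depleted total RNA; reads were mapped to hg19 with STAR and counted with HTSeq over the Ensembl annotation. Versions, strand setting and treatment of multi-mapped reads are not given in the sources used here. Reads on no feature (34.9% to 42.5% of gene, no-feature and ambiguous reads together) and ambiguous reads (3.81% to 4.75%) were left out of library sizes. Counts were fitted in edgeR 4.0.16 (TMM scaling, filterByExpr, quasi-likelihood test, R 4.3.3) with all 8 libraries in 1 model, which left 4 residual degrees of freedom, and p-values were adjusted by Benjamini-Hochberg over the 23474 genes tested. CPM uses TMM-scaled library sizes; log2 CPM adds a prior count of 2. Intervals are 95% intervals of the fit. The procedure was tested on simulated data. Alternatives were RLE scaling, DESeq2 1.42.0, no filter, a fit of the libraries compared, a replicate block and each library left out; a GC content correction was added after seeing the data.

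Gene positions are from GENCODE on GRCh37 and matched 55538 of the 57773 genes; sequences were aligned with Biopython 1.88. The members and gene lists were chosen with earlier results of these data known. Genes named are the members, CHD7, the 3 genes next in size of fall, relatives, nearest tested neighbours, the 3 genes most alike in level and every listed gene called; others are said to be named after their values were seen. Counting error alone is covered by the detection floor. The ectoderm list is given without 1 marker, which is not reported here.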

Additional observations from a re-analysis of the deposited data

How the results depend on the processing

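Of the alternative values for the 4 genes, 201 kept their direction and side of the threshold or moved by less than 1 SD, and those that did not are given here; the cause of each was not tested. In CHD7 knockout, leaving out each library gave log2 fold changes of −9.36 to −5.18 for FOXB2, −7.55 to −4.72 for AACSP1 and −4.02 to −3.66 for ZNF619. For LINC02751 in HERVH knockdown the fit of the 4 libraries compared gave −1.70, and leaving out each library gave −1.92 to −1.52. Between HERVH knockdown and HERVH element deleted cells, LINC02751 became called with DESeq2 (−1.50), without the filter (−1.50) and with the GC content correction (−1.37), and leaving out each library gave −1.73 to −1.32. Small changes near 0 turned sign. In HERVH element deleted cells FOXB2 was at 0.14 with the GC content correction and −0.26 to 0.23 when libraries were left out, AACSP1 at −0.064 to 0.27 and ZNF619 at −0.31 to 0.044. Between HERVH knockdown and HERVH element deleted cells AACSP1 was at −0.10 with the GC content correction and −0.065 to 0.24 when libraries were left out. FOXB1 in CHD7 knockout was at 0.0040 with the GC content correction and −0.39 to 0.27 when libraries were left out.

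Counts of genes called moved widely, which bears on every background share above. The 55 genes called lower in CHD7 knockout became 106 with DESeq2, 149 without the filter, 127 in the fit of the 4 libraries compared, 113 with the GC content correction and 8 to 154 when each library was left out. The 79 called higher there became 166 with DESeq2, 219 without the filter, 222 in the fit of the 4 libraries compared, 189 with the GC content correction and 17 to 230. The 32 genes called lower in HERVH knockdown became 55 with RLE scaling, 240 with DESeq2, 340 without the filter, 1 in the fit of the 4 libraries compared, 240 with the GC content correction and 0 to 451 when each library was left out. The 19 called higher there became 104 with DESeq2, 166 without the filter, 5 in the fit of the 4 libraries compared, 94 with the GC content correction and 2 to 455. The 7 genes called lower in HERVH element deleted cells became 14 with DESeq2, 29 without the filter, 16 with the GC content correction and 5 to 20 when each library was left out. The 0 called higher there became 1 without the filter and 0 to 1. The 19 genes called lower between HERVH knockdown and HERVH element deleted cells became 30 with RLE scaling, 140 with DESeq2, 201 without the filter, 0 in the fit of the 4 libraries compared, 114 with the GC content correction and 2 to 355 when each library was left out. The 29 called higher there became 133 with DESeq2, 226 without the filter, 2 in the fit of the 4 libraries compared, 93 with the GC content correction and 7 to 670.

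The replicate block could be fitted, but the numbers pair nothing in the labels and the replicate differences of 2 groups correlated at −0.0693 to 0.119, so the samples share only a number. With it 65 genes were called lower and 88 higher in CHD7 knockout, 44 and 26 in HERVH knockdown, 6 and 0 in HERVH element deleted cells and 25 and 41 between the last 2 groups, and no call of the 4 genes changed. FOXB2, with at most 105 counts in a library, has the widest intervals of the 4 genes, and depth limits what can be said of it and of ENSG00000254695.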
